A study of Mus musculus with 14 samples.

Results

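The genes described here are 43 genes of the cell cycle and of DNA replication, out of 36536 genes counted in each library. They were taken as a named list, by gene symbol, and all 43 were found and passed the filter on low counts. S phase genes make up 21 of them and mitotic genes 22. Levels were compared over 14 mouse libraries in 6 groups, from an RNA sequencing study of the targets of ATOH1, a transcription factor of the intestinal secretory lineage. Knockout crypts (KO, 2 libraries each of colon and ileum) came from mice with the genotype Atoh1lox/lox;VilCreERT2, aged 6 to 8 weeks. Wild-type crypts (WT, 2 libraries each) came from littermates of the same age with the genotype Atoh1lox/WT;VilCreERT2, so the controls carry 1 floxed allele and the recombinase too. VilCreERT2 is an inducible Cre recombinase driven by the promoter of villin, which is active in the intestinal epithelium. GFP+ cells (3 libraries each of colon and ileum) were live cells, negative for the dye 7AAD, sorted from crypts of Atoh1GFP/GFP mice, which express an ATOH1-GFP fusion protein. An age is not given for these mice in the sources used here, and the time and agent of recombination are not given for the crypts. The labels do not say that libraries came from separate animals, so p-values measure the spread between these libraries, which may be technical.

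In G1 phase, cyclin-dependent kinases inactivate the RB family, and E2F factors then switch on the genes of S phase. Origins of replication are licensed when CDC6 and CDT1 load the MCM2-7 helicase onto DNA, and the helicase fires once CDC45 and the GINS complex join it. A later wave of genes, held down in resting cells by the DREAM complex and switched on by B-MYB and FOXM1, drives entry into and passage through mitosis. In the intestine, proliferation is confined to crypts, where stem cells and transit-amplifying progenitors divide, while mature goblet, Paneth and enteroendocrine cells have left the cycle.

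Letters of 3 short motifs were searched before the start sites of S phase and mitotic members. Their link to the levels below was not tested. RefSeq promoters, from the GRCm38.p6 assembly, were matched for 35 of the 43 members, which gave 37 promoters. On both strands of the 250 bases before each start, letters of the E2F motif were searched (TTTCCCGC, TTTGGCGC, TTTCGCGC and TTCCCGCC), and those of the cell cycle genes homology region (CHR, TTTGAA) and of the CCAAT box (CCAAT). E2F letters were found in 42.1% of 19 promoters of S phase members, 5.56% of 18 promoters of mitotic members and 2.92% of the 32851 promoters in the table. CHR letters were found in 10.5%, 38.9% and 16%, and CCAAT in 68.4%, 88.9% and 33.8%, in the same order. The S phase members Cdc45 and Mcm2 had CHR letters, and the mitotic member Cdk1 had E2F letters. A match of letters is a description and not evidence of a bound site. The last 200 bases before the start are shown for 4 members, 5′ to 3′ on the gene's strand, with matched letters of any of the 3 motifs in capitals; overlapping matches form 1 run.
Mcm6, E2F and CCAAT letters (chr1:128359706-128359905, minus strand): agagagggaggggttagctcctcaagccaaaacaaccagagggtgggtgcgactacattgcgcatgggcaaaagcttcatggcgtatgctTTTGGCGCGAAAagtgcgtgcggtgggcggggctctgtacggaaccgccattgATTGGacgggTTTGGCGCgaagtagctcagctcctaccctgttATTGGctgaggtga
Rrm1, E2F and CCAAT letters (chr7:102441495-102441694, plus strand): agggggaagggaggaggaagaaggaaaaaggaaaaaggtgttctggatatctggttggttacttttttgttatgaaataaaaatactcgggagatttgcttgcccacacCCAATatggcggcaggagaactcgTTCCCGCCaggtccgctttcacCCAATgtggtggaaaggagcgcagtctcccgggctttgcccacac
Top2a, CHR and CCAAT letters (chr11:99024190-99024389, minus strand): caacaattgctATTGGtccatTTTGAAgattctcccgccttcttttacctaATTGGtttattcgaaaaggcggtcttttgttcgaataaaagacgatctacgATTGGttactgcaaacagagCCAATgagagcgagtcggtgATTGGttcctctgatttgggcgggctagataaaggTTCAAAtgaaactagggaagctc
Cdc20, CHR and CCAAT letters (chr4:118437344-118437543, minus strand): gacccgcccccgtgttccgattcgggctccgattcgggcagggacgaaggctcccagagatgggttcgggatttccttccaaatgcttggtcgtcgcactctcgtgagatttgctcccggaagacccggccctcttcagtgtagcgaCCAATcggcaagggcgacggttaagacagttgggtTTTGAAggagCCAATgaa
The first 2 belong to S phase members and the last 2 to mitotic members. Mcm6, a subunit of the replicative helicase, was lower in ileum GFP+ cells and in colon crypts. Rrm1, the large subunit of ribonucleotide reductase, was the member whose GFP+ difference passed the test between tissues. Top2a, the topoisomerase that untangles chromosomes, had the largest colon to ileum difference among WT crypts. Cdc20, an activator of the anaphase-promoting complex (APC/C), was lower in GFP+ cells than in crypts in all 4 comparisons. Its call against colon WT crypts depended on the setting, as given below.

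Gene counts ran from 7478418 to 12991891 per library, and a member had between 19 reads (Ccne1 in colon GFP+ 3) and 6018 reads (Mki67 in ileum KO 2). Values below are CPM, gene counts scaled to the size of the library with TMM over all 14 libraries; group values are mean ± SD (n = 3 for GFP+, n = 2 for KO and WT). A gene is said to have risen or fallen when its adjusted p in edgeR's quasi-likelihood test was under 0.05. Atoh1 followed the labels, with 231 to 295 CPM in colon GFP+ and 195 to 323 CPM in ileum GFP+ libraries. It had 44.7 to 62.6 CPM in colon WT, 39.5 to 41.0 CPM in ileum WT, 5.20 to 5.90 CPM in colon KO and 0.526 to 1.02 CPM in ileum KO. Sorted and crypt libraries differed in makeup: mitochondrial ribosomal RNA took 30 to 44.9% of gene counts in GFP+ and 0.136 to 0.219% in crypt libraries. Ileum GFP+ 1 stood apart from the other sorted libraries, with 52.3% of uniquely placed reads outside genes (24.9 to 31.9% in the other 5). Its 8 stem cell markers summed to 1618 CPM, against 577 and 552 CPM in ileum GFP+ 2 and 3, and 1 of them, Olfm4, made up 1068, 272 and 265 CPM of these sums. Colon GFP+ 1 had 2463 CPM summed over 10 Paneth markers, against 209.5 and 164 CPM in colon GFP+ 2 and 3. Its mitotic members summed to 1601 CPM, against 1339 and 1338 CPM, and a link between the 2 sums was not tested. Ileum WT 1 had 66.1 CPM summed over 10 B cell and germinal centre markers, against 3.99 CPM in ileum WT 2. Ileum WT 2 had 341 CPM over 8 tuft cell markers, against 22.2 CPM in ileum WT 1.

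Per kilobase of exon, the members spanned a wide range. Averaged over the 6 groups, the highest were Mki67, which coats mitotic chromosomes, at 37.5 CPM per kb, the mitotic cyclin Ccnb2 at 34.6, Top2a at 31.7 and the kinase Plk1 at 28.0. The lowest were the licensing factor Cdc6 at 2.23 CPM per kb and Chaf1a, a histone chaperone subunit, at 2.47. Ccnb1, the other main B-type cyclin, stood at 3.64 CPM per kb, well under Ccnb2. The members were summed to give an overview by library. The 22 mitotic members summed to 1002 ± 8.96 CPM in colon WT, 1282 ± 51.7 CPM in colon KO and 1426 ± 151 CPM in colon GFP+. In ileum they summed to 1791 ± 70.2, 2249 ± 112 and 2008 ± 107 CPM in WT, KO and GFP+. The 21 S phase members summed to 704 ± 14.3, 742 ± 39.2 and 722 ± 50.4 CPM in colon WT, KO and GFP+, and to 1047 ± 12.4, 1142 ± 36.2 and 677 ± 129 CPM in ileum. The mitotic sums of KO and WT libraries did not overlap in either tissue, while the S phase sum of colon KO 2 (715 CPM) equalled that of colon WT 2 (715 CPM). The mitotic to S phase ratio was lowest in colon WT (1.42 ± 0.0161) and highest in ileum GFP+ (3.02 ± 0.478), with the ileum GFP+ libraries at 2.58, 3.53 and 2.97.

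**Figure D1:**
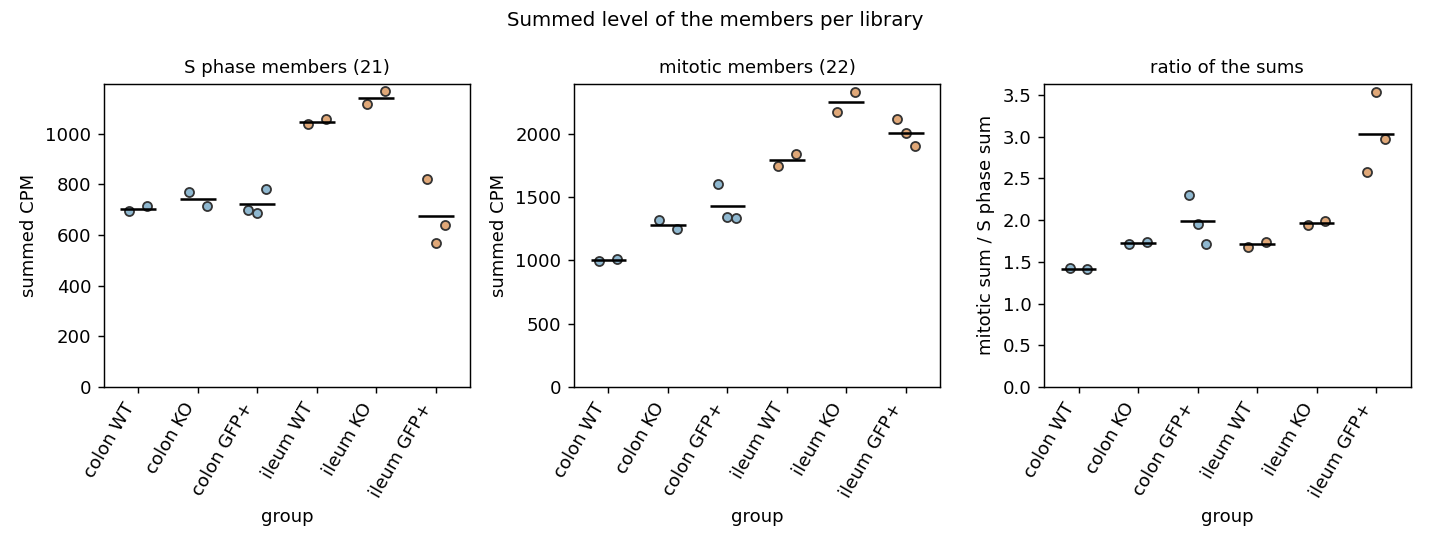
Summed CPM of the 21 S phase members, of the 22 mitotic members, and the ratio of the sums, per library (points) and group mean (line), by group on the x axis. Ileum crypts sit above colon crypts in both sums, KO above WT in the mitotic sum, and the ileum GFP+ libraries (569 to 820.2 CPM) are below all ileum crypts in the S phase sum.

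**Figure D2:**
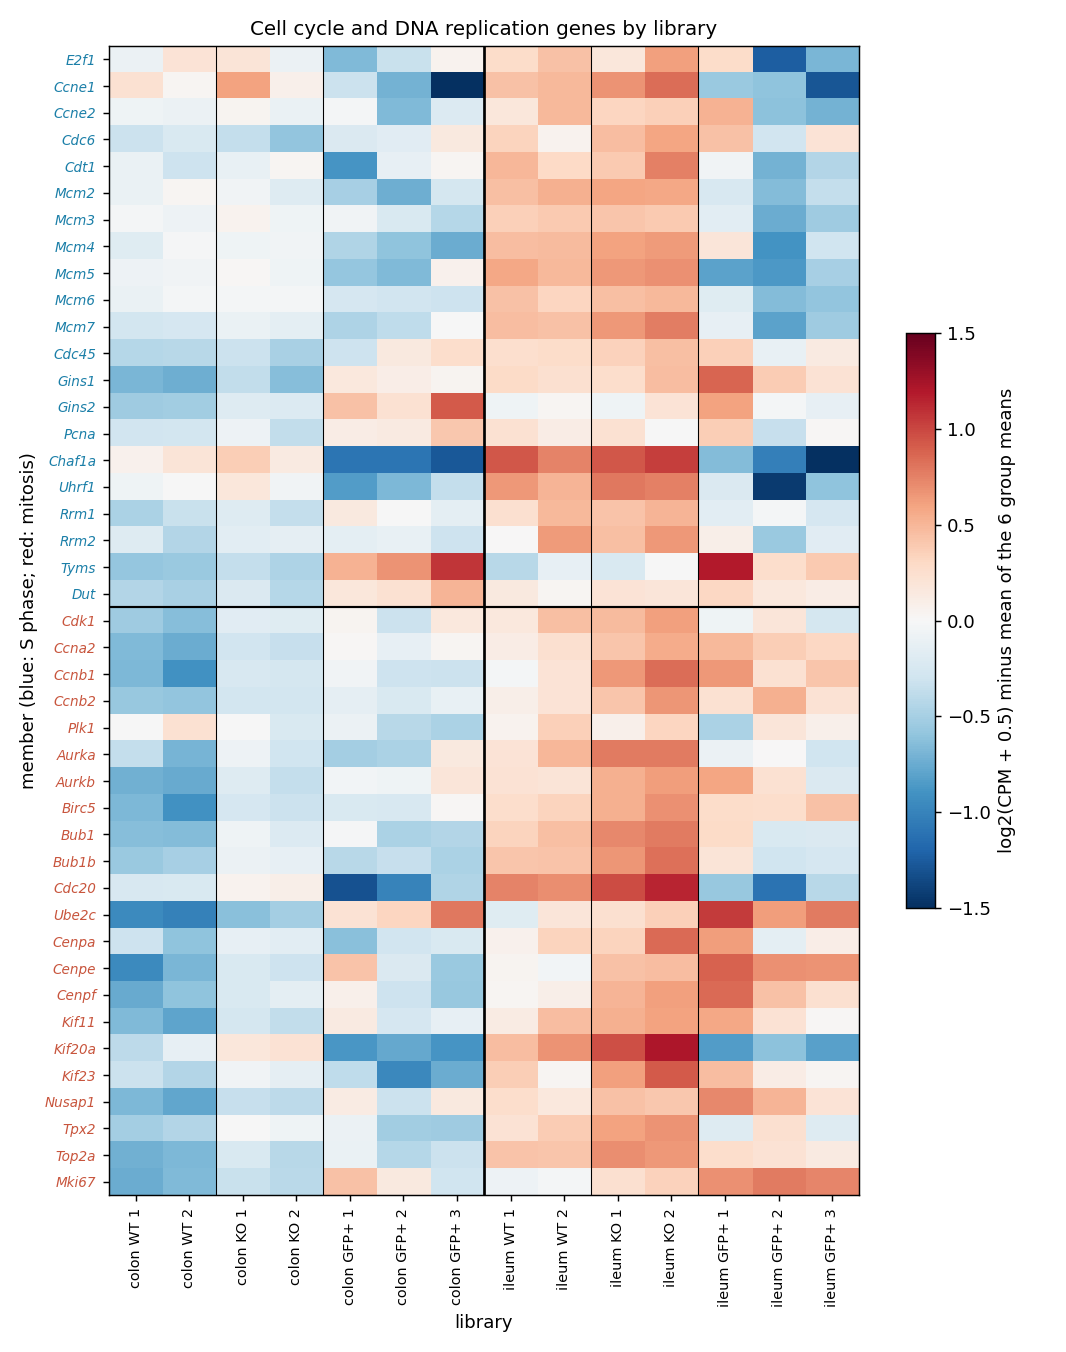
Log2(CPM + 0.5) of each member in each library, minus the mean of the 6 group means of that gene, with S phase members above and mitotic members below the line. Colon WT libraries are low and ileum KO libraries high for most mitotic members, and Chaf1a, Kif20a and Cdc20 are low in the GFP+ libraries of both tissues.

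The first comparison asked whether loss of Atoh1 went with a change of the cell cycle genes in crypts. Within each tissue no member rose or fell (edgeR). The share of all 14415 genes that rose was 0.00694% in colon and 0.132% in ileum, and 0.146% and 1.09% fell, so few genes of any kind passed in these tests. Without the adjustment, 18 of 22 mitotic members had p under 0.05 in colon and 19 in ileum, against 0 and 1 of 21 S phase members (7.69% and 13.4% of all genes). DESeq2 called 0 members in colon and, in ileum, Cenpf and Mki67. The mitotic members' median log2 fold change was 0.40 in colon and 0.38 in ileum, the S phase members' 0.08 and 0.17, and that of all genes 0.01 in both. These mitotic medians stayed within 0.37 to 0.42 under the other scalings of the libraries. With 1 library left out, the mitotic median was 0.31 (ileum KO 2) to 0.46 (ileum WT 2) in ileum. In colon it was 0.37 (colon KO 1) to 0.42 (colon KO 2). With all 14 libraries in the fit it was 0.41 in colon and 0.34 in ileum. The colon S phase median was −0.01 without colon KO 1.

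Levels of 21 of the 22 mitotic members were higher in both KO libraries than in both WT libraries, and these were the same 21 in colon and ileum. The share of all genes whose KO libraries were all higher was 22.5% in colon and 18.0% in ileum, and the share in both was not computed. Of the 21 S phase members, 7 in colon and 10 in ileum were without overlap higher, and Mcm6, Mcm7 and Dut were so in both. Plk1, a kinase of mitotic entry and spindle assembly, was the mitotic exception. It had 60.2 and 51.8 CPM in colon KO against 60.6 and 71.2 CPM in colon WT, so its colon KO libraries were the lower ones, and in ileum 64.1 and 76.2 CPM (KO) overlapped 63.0 and 77.6 CPM (WT). Cdc6 was the only S phase member whose colon KO libraries were both under the WT libraries, so 2 of 43 members were lower without overlap in colon, against 20.1% of all genes. Its libraries had 8.67 and 7.31 CPM in colon KO against 8.91 and 9.57 CPM in WT, but 15.7 and 17.2 CPM in ileum KO against 14.3 and 11.7 CPM in WT. This difference between tissues did not pass (log2 difference −0.59, SE 0.23, unadjusted p = 0.0355, adjusted p = 1.00). No member passed the test of a KO effect that differs between colon and ileum, where 1 of 14415 genes (0.00694%) did.

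Averaged over both tissues, which brings all 8 crypt libraries into 1 contrast, 8 mitotic members rose in KO and no S phase member did; 0.486% of all genes rose. The 8 rose 1.29- to 1.55-fold. They were the cyclins Ccna2 and Ccnb1, the chromosomal passenger kinase Aurkb, the spindle checkpoint kinases Bub1 and Bub1b, the kinetochore proteins Cenpe and Cenpf, and Tpx2, a spindle assembly factor that activates Aurora A. None fell, against 1.96% of all genes. The count depended on the setting, and shares of all genes that rose in the other settings are not given here. The count was 1 with all 14 libraries in the fit, 13 when genes with few counts were kept, and 14 by DESeq2. It was 0 without colon KO 1, colon KO 2, colon WT 1, ileum KO 1 or ileum KO 2, and 1 without colon WT 2. It was 15 without ileum WT 1, the library with B cell markers, and 14 without ileum WT 2.

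Ccnb1, which with CDK1 forms the kinase that starts mitosis, rose the most. It had 12.1 and 11.9 CPM in colon KO and 8.83 and 7.45 CPM in colon WT. The ileum KO libraries had 22.9 and 26.2 CPM and the ileum WT libraries 14.1 and 16.7 CPM. KO and WT libraries did not overlap in either tissue, and the averaged change was 1.55-fold (log2 0.63, SE 0.11, edgeR adjusted p = 0.0354). Cenpf, a large protein of the outer kinetochore, had the smallest p of the members. It had 47.7 and 50.4 CPM in colon KO against 33.0 and 36.7 CPM in WT, while ileum KO had 80.0 and 85.8 CPM against 57.0 and 59.4 CPM in WT. The averaged change was 1.43-fold (log2 0.51, SE 0.07, edgeR adjusted p = 0.0183). In ileum alone Cenpf missed the threshold (log2 0.54, SE 0.10, edgeR adjusted p = 0.0561), and it passed there by DESeq2 (adjusted p = 0.0174), with the filter dropped (edgeR adjusted p = 0.0413), with a replicate block (edgeR adjusted p = 0.0483) and without ileum WT 1 (edgeR adjusted p = 0.0401). Over all these and the other alternatives its adjusted p ran from 0.0174 to 0.494.

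The kinesin motor Cenpe, which carries chromosomes to the metaphase plate, had 45.3 and 42.8 CPM in colon KO against 27.1 and 32.7 CPM in WT. Its ileum KO libraries had 71.8 and 73.5 CPM and its ileum WT libraries 54.7 and 51.7 CPM, again without overlap (averaged 1.43-fold, edgeR adjusted p = 0.0262). Aurkb, which corrects wrong attachments of chromosomes to the spindle, had 33.8 and 30.3 CPM in colon KO against 23.4 and 22.8 CPM in WT. In ileum it had 56.6 and 60.4 CPM in KO against 45.1 and 44.4 CPM in WT (averaged 1.36-fold, edgeR adjusted p = 0.0261). Ccna2, the cyclin of S phase and G2, had 86.5 and 83.3 CPM in colon KO against 66.8 and 62.9 CPM in WT. Its ileum KO libraries had 142 and 156 CPM, and the ileum WT libraries 114 and 125 CPM (averaged 1.29-fold, edgeR adjusted p = 0.0480). The call of Ccna2 was lost with a replicate block (edgeR adjusted p = 0.0652) and with genes over 1% of counts left out of the scaling (edgeR adjusted p = 0.0536), and its adjusted p ran from 0.00638 to 0.203 over all alternatives. All 3 genes had every KO library above every WT library of the same tissue.

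Several mitotic members missed the threshold in the averaged test by little, while Plk1 was far from it (log2 −0.11, edgeR adjusted p = 0.706). Birc5, the survivin subunit of the chromosomal passenger complex, was 1.34-fold higher (edgeR adjusted p = 0.0511), Cdc20 1.26-fold higher (edgeR adjusted p = 0.0543) and the cytokinesis kinesin Kif20a 1.42-fold higher (edgeR adjusted p = 0.0574). Mki67 had 283 and 269 CPM in colon KO against 213 and 225 CPM in WT, while ileum KO had 422 and 452 CPM against 339 and 350.2 CPM in WT (averaged 1.27-fold, edgeR adjusted p = 0.0637). Among S phase members the smallest adjusted p was that of the helicase subunit Mcm7, 1.16-fold higher (edgeR adjusted p = 0.147). Pcna, the sliding clamp of the replication fork, had 34.9 and 28.4 CPM in colon KO around 30.1 and 30.4 CPM in WT, while ileum KO had 43.2 and 36.8 CPM beside 43.4 and 40.0 CPM in WT.

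**Figure D3:**
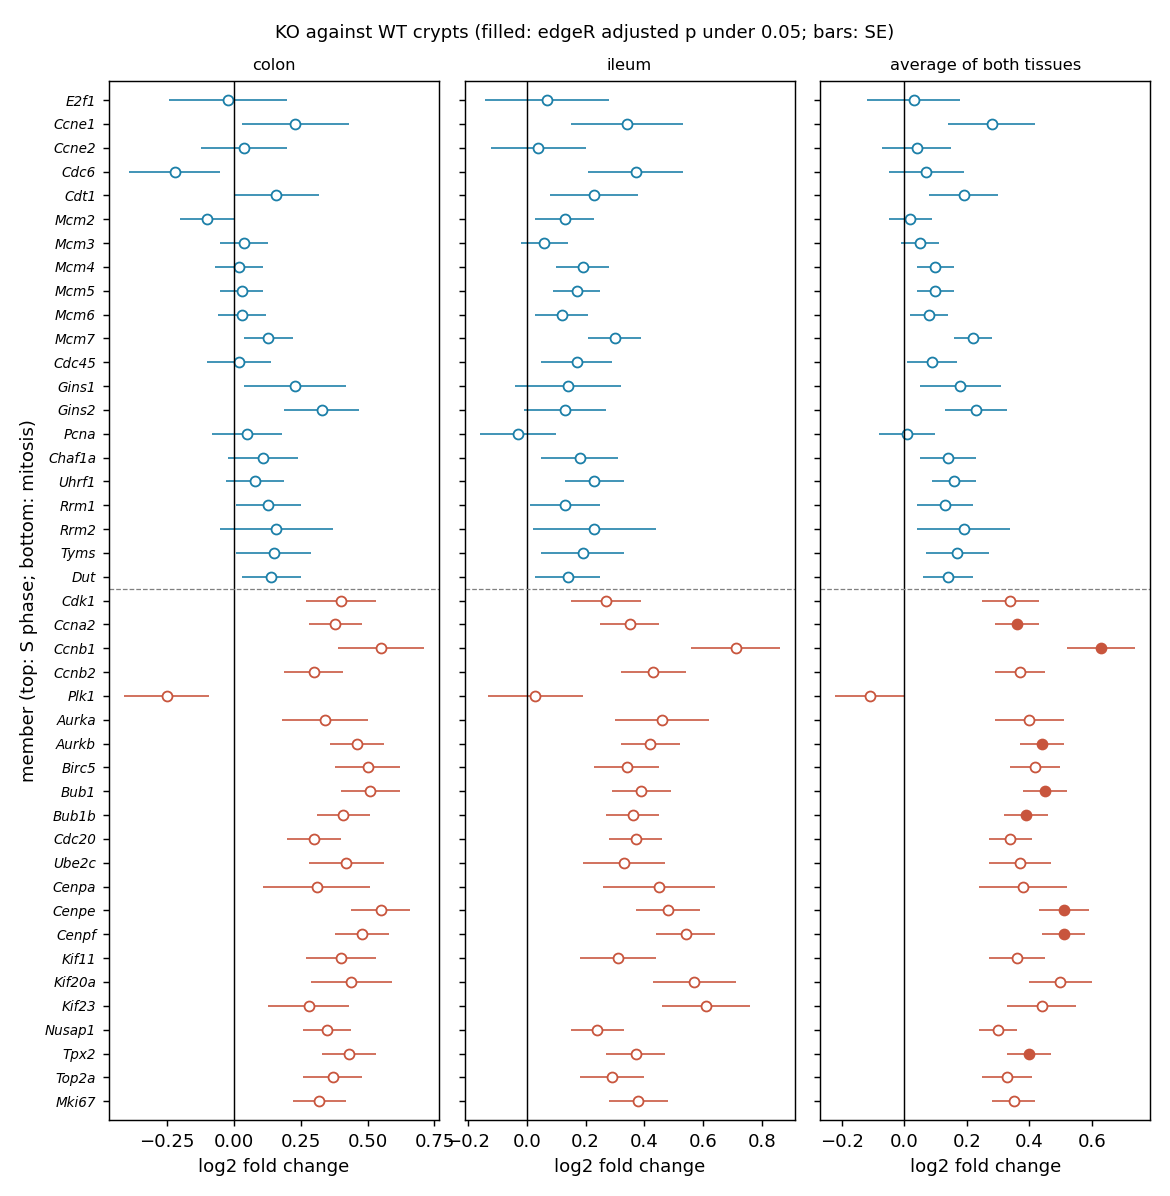
Log2 fold change of KO against WT crypts for each member (points; bars are the SE), in colon, in ileum and averaged over both, with separate x scales; filled points passed an edgeR adjusted p under 0.05. Filled points are 8 mitotic members in the average, and Plk1 is the mitotic member on the other side of 0 in the average (−0.11).

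The averaged test was also read for 56 further genes of mitosis that are no members. Of these, 11 rose, none fell and 45 did not pass, with a median log2 fold change of 0.36. The 11 included Cdc25c, the phosphatase that activates CDK1, at 8.88 and 8.64 CPM in colon KO against 5.63 and 5.60 CPM in WT, and at 13.2 and 13.8 CPM in ileum KO against 9.75 and 10.3 CPM in WT. The checkpoint kinase Ttk (log2 0.56, edgeR adjusted p = 0.0304) and the centrosome kinase Nek2 (log2 0.54, edgeR adjusted p = 0.0239) were also among them. Of 42 further genes of origins and forks, 0 rose or fell in the averaged test (11 had an unadjusted p under 0.05), with a median of 0.15. In ileum alone 1 of the 42 rose. This was Mcm10, which helps activate the helicase, with 63.2 and 70.5 CPM in KO against 45.6 and 46.0 CPM in WT (log2 0.58, edgeR adjusted p = 0.0467). None of 9 G1 cyclins and kinases, 16 E2F, RB and DREAM factors or 12 tested CDK inhibitors and exit genes passed in the averaged test, where 3, 3 and 4 had an unadjusted p under 0.05.

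Crypt makeup moved with genotype. The 10 goblet markers summed to 1814 to 1894 CPM in colon KO against 10312 to 21869 CPM in colon WT, and to 224 to 575 CPM in ileum KO against 11284 to 15451 CPM in ileum WT. All 10 goblet markers fell in the averaged test. The 10 Paneth markers summed to 1111 to 2221 CPM in ileum KO and 10858 to 40658 CPM in ileum WT. All 9 tested enteroendocrine markers fell in the averaged test, with sums of 63.9 to 96.2 CPM in colon KO against 150.1 to 156 CPM in colon WT, and of 33.2 to 36.2 CPM in ileum KO against 155 to 156 CPM in ileum WT. The 12 absorptive markers summed to 9269.8 to 10225 CPM in ileum KO against 5911 to 6235 CPM in ileum WT, and overlapped in colon (8449 to 9041 and 3665 to 9495 CPM). None passed the averaged edgeR test, and 5 of 12 had an unadjusted p under 0.05. The 8 tuft markers summed to 6.01 to 7.82 CPM in ileum KO against 22.2 to 341 CPM in ileum WT, overlapped in colon (16.5 to 24.4 and 22.9 to 52.9 CPM). None of the 7 tested passed the averaged edgeR test, and all 7 were lower with an unadjusted p under 0.05. Immune markers (12 genes) summed to 44.4 to 51.8 CPM in colon KO and 79.5 to 103 CPM in colon WT, and overlapped between groups in ileum (76.3 to 96.4 and 32.2 to 171 CPM). The part of these cell types in the mitotic gene levels was not tested. In bulk RNA such as this, a change in the number of cells of a type and a change in RNA per cell cannot be told apart.

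The next comparison set colon against ileum. In WT crypts 34 of 43 members were lower in colon (14 S phase, 20 mitotic), where 9.71% of all genes were lower; none was higher, where 10.2% of all genes were. In KO crypts 36 were lower in colon (15 S phase, 21 mitotic; 12.6% of all genes), and none was higher (13.1%). The WT and KO tests compare different libraries but share 1 estimate of the spread. Lower in both were 33 members, 13 of S phase and 20 of mitosis. The share of all genes lower in both was not computed. The median log2 fold change was −0.70 in WT and −0.77 in KO, against −0.01 and −0.02 for all genes. The S phase medians were −0.55 and −0.72 and the mitotic medians −0.89 in both. Levels of 42 of 43 members were without overlap lower in colon in each genotype, against 30.1% and 32.9% of all genes; the exceptions were Plk1 in WT and E2f1 in KO. None was without overlap higher, against 28.6% and 35.5% of all genes. The count of 34 was 20 when only WT libraries were fitted, and 19 without colon WT 1.

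All 6 MCM subunits of the replicative helicase were lower in colon crypts of both genotypes, by 1.34-fold (Mcm3) to 1.64-fold (Mcm7) in WT. With only WT libraries in the fit, the WT calls of Mcm2, Mcm3, Mcm4 and Mcm6 were lost. With all 14 libraries in the fit, Mcm2, Mcm3, Mcm4, Mcm5 and Mcm6 lost the call in WT, and Mcm3, Mcm4 and Mcm6 in KO. Mcm6 had 98.0 and 103 CPM in colon WT against 142 and 131 CPM in ileum WT, and 103 in both colon KO libraries against 143 and 147 CPM in ileum KO. The 4 groups did not overlap between tissues (1.35-fold lower in WT, edgeR adjusted p = 0.0148; 1.43-fold lower in KO, edgeR adjusted p = 0.00544). Gins1, a GINS subunit of the active helicase, had the largest S phase difference in WT, at 4.41 and 4.24 CPM in colon and 9.14 and 8.81 CPM in ileum (2.05-fold lower, edgeR adjusted p = 0.01). It had 51 and 62 reads in the colon WT libraries, and its call was lost with only WT libraries in the fit. Cdc6 was lower in colon among KO crypts (2.11-fold, edgeR adjusted p = 0.00369) and did not pass among WT crypts (1.39-fold, edgeR adjusted p = 0.0835). The G1/S regulators E2f1, Ccne1 and Ccne2 did not pass in either genotype, with folds of 1.24 to 1.36 lower in colon. Tyms, which makes the thymidine precursor dTMP, did not pass either (1.23-fold lower in WT, edgeR adjusted p = 0.188).

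Among mitotic members, Top2a had the largest difference in WT crypts. It had 164 and 169.9 CPM in colon WT against 364 and 362 CPM in ileum WT, and 232 and 203 CPM in colon KO against 440.1 and 424 CPM in ileum KO. Libraries did not overlap, and levels were 2.15-fold lower in colon WT (log2 −1.11, SE 0.11, edgeR adjusted p = 0.000832) and 2.03-fold lower in colon KO (log2 −1.02, SE 0.11, edgeR adjusted p = 0.000904). Birc5 was 2.13-fold lower in colon WT and 1.92-fold lower in colon KO (edgeR adjusted p = 0.00114 and 0.00157). The kinesin Kif11, which pushes spindle poles apart, was 2.03- and 1.89-fold lower (edgeR adjusted p = 0.00256 and 0.00273). Plk1 had 60.6 and 71.2 CPM in colon WT and 63.0 and 77.6 CPM in ileum WT, which overlapped (1.06-fold, edgeR adjusted p = 0.779). Colon KO crypts, with 60.2 and 51.8 CPM of Plk1, were under the 64.1 and 76.2 CPM of ileum KO crypts, and this did not pass (1.28-fold, edgeR adjusted p = 0.141).

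Other genes of the cycle were lower in colon crypts as well. Of 56 further mitosis genes, 49 were lower and 1 higher in colon WT, and 50 were lower and 0 higher in colon KO. The higher one was Pttg1, which encodes securin, the inhibitor of separase (log2 0.75, edgeR adjusted p = 0.0260). Of 42 further origin and fork genes, 20 were lower in WT and 26 in KO, and none was higher. Cyclin D1 (Ccnd1), which drives G1 progression, had 125 and 142 CPM in colon WT against 285 and 201 CPM in ileum WT (log2 −0.85, edgeR adjusted p = 0.0175). It had 110.4 and 103 CPM in colon KO against 397 and 329 CPM in ileum KO (log2 −1.80, edgeR adjusted p = 0.000775). Cyclin D3 (Ccnd3) was higher in colon in both genotypes (log2 0.72 and 0.61, edgeR adjusted p = 0.0209 and 0.0316). The repressor E2f7 and its relative E2f8, which shut off S phase genes late in the cycle, were lower in colon in both genotypes (log2 −0.95 and −1.34 for E2f7, −0.75 and −0.94 for E2f8).

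Several stem cell markers were lower in colon crypts too. The 8 genes summed to 167 to 199.9 CPM in colon WT and 1464 to 1590.4 CPM in ileum WT, and to 179 to 200.4 CPM in colon KO and 592 to 1046 CPM in ileum KO; 5 of 8 were lower in each genotype. Olfm4 carried most of the ileum sums, with 1134 and 1256 CPM in ileum WT and 3.55 and 0.820 CPM in colon WT. Without it the other 7 summed to 163 and 199 CPM in colon WT, 330.3 and 334 CPM in ileum WT, 177 to 196 CPM in colon KO and 355 to 372 CPM in ileum KO. Lgr5, the receptor that marks crypt base stem cells, had 11.2 and 7.59 CPM in colon WT and 40.9 and 31.0 CPM in ileum WT. The part of stem cell number, or of how crypts were isolated from each organ, in the lower cell cycle levels was not tested.

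In GFP+ cells the members that passed between organs were all mitotic. Here 10 of 43 members were lower in colon, all 10 mitotic (10.2% of all genes were lower), and 0 were higher (12.6%). The S phase median was 0.10, with 14 of 21 members above 0, and the mitotic median −0.39. The S phase median was −0.06 with 10 of 21 above 0 without colon GFP+ 3, and −0.07 with 9 of 21 above 0 without ileum GFP+ 2. Whether the tissue gap of S phase members differs between GFP+ cells and WT crypts is the interaction described further on. The 10 were Ccna2, Ccnb1, Ccnb2, Birc5, Cenpe, Cenpf, Kif23, Nusap1, Top2a and Mki67, lower by 1.34- to 1.86-fold. Kif23, a motor of the central spindle in cytokinesis, had 36.7, 24.3 and 28.5 CPM in colon GFP+ and 66.1, 52.0 and 48.8 CPM in ileum GFP+. The libraries did not overlap (1.86-fold lower, log2 −0.89, SE 0.18, edgeR adjusted p = 0.00285). Mki67 had 483, 395 and 290.5 CPM in colon GFP+ and 575, 614 and 595 CPM in ileum GFP+, also without overlap (1.53-fold lower, edgeR adjusted p = 0.0215). The count of 10 was 5 when genes with few counts were kept, 3 with only GFP+ libraries in the fit and 4 without colon GFP+ 2. Without ileum GFP+ 1, Mcm3, Mcm6 and Gins2 passed as higher in colon.

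**Figure D4:**
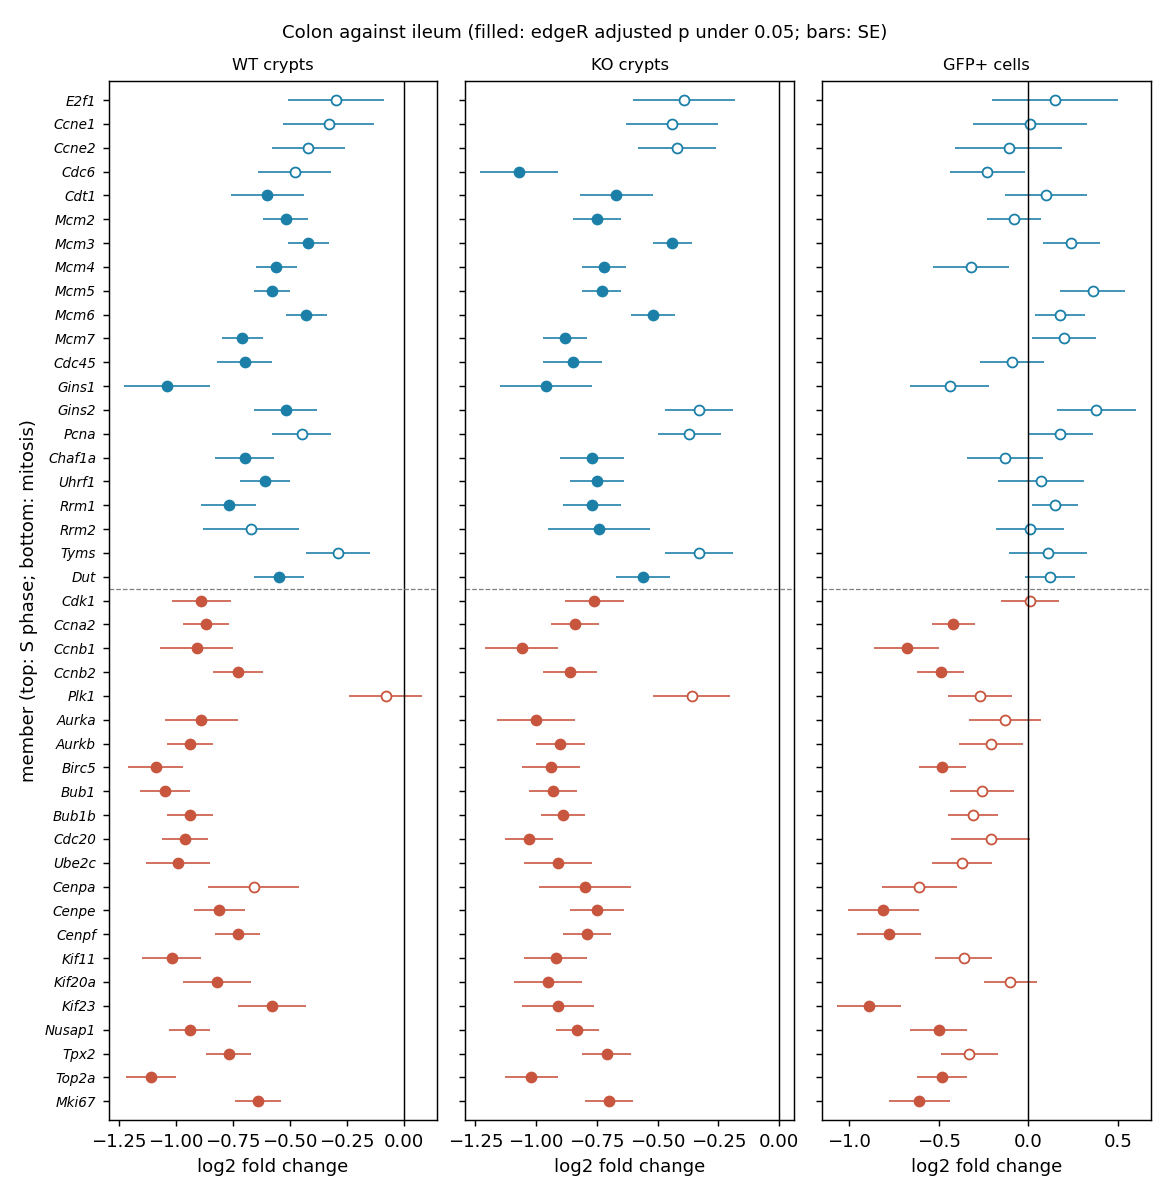
Log2 fold change of colon against ileum for each member (points; bars are the SE), in WT crypts, KO crypts and GFP+ cells, with separate x scales; filled points passed an edgeR adjusted p under 0.05. All points lie under 0 in WT and KO crypts, and in GFP+ cells the filled points are 10 mitotic members.

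The third comparison set GFP+ cells against whole crypts. Sorting, genotype and cell type differ together between these groups and cannot be told apart, and a large share of all genes passed these tests. Against WT crypts, 18 members were higher in colon GFP+ cells (6 S phase, 12 mitotic; 22.3% of all genes) and 5 were lower (3 S phase, 2 mitotic; 23.6%). In ileum 4 were higher (1 S phase, 3 mitotic; 24.6%) and 15 lower (12 S phase, 3 mitotic; 28.1%). The S phase median was −0.09 in colon and −0.75 in ileum, and the mitotic median 0.43 and 0.01, against 0.01 and −0.06 for all genes. The medians nearest 0 turned sign: the ileum mitotic median was −0.01 with genes over 1% of counts left out of the scaling, −0.08 when genes with few counts were kept or without ileum WT 1, −0.15 without ileum GFP+ 1, and −0.20 without both libraries. The colon S phase median was 0.09 without colon GFP+ 1. The colon count of 18 was 11 when genes with few counts were kept, 8 without colon WT 1 and 7 without colon WT 2. The 5 lower in colon were 3 without colon GFP+ 1, 2 without colon GFP+ 2 or colon WT 1, and 1 without colon WT 2. The 4 higher in ileum were 1, Mki67, without ileum WT 1. Without overlap, 8 members were higher in ileum GFP+ than in ileum WT libraries, against 30.9% of all genes.

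The members higher in the GFP+ cells of both tissues were Tyms, Ube2c, Cenpe and Mki67. Of all genes, 22.3% were higher in colon and 24.6% in ileum, and the share higher in both was not computed. Tyms had 56.1, 62.5 and 82.2 CPM in colon GFP+ against 25.9 and 26.2 CPM in colon WT. It had 89.1, 46.8 and 51.1 CPM in ileum GFP+ against 28.9 and 35.6 CPM in ileum WT. All GFP+ libraries were above the WT libraries (2.56-fold, edgeR adjusted p = 0.000798 in colon; 1.93-fold, edgeR adjusted p = 0.00640 in ileum). Ube2c, the APC/C ubiquitin-conjugating enzyme that lets cells leave mitosis, had 62.8, 67.5 and 94.0 CPM in colon GFP+ against 27.6 and 26.5 CPM in WT. In ileum it had 112, 84.1 and 92.9 CPM in GFP+ against 47.5 and 61.2 CPM in WT. The libraries did not overlap (2.76-fold, edgeR adjusted p = 6.31e-05; 1.77-fold, edgeR adjusted p = 0.00285). Mki67 was 1.78-fold higher in colon and 1.72-fold higher in ileum (edgeR adjusted p = 0.00388 and 0.00436). Cenpe was 1.71- and 1.68-fold higher (edgeR adjusted p = 0.0130 and 0.0118).

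Ccne1, Mcm2, Chaf1a, Cdc20 and Kif20a were lower in the GFP+ cells of both tissues. Of all genes, 23.6% were lower in colon and 28.1% in ileum, and the share lower in both was not computed. Chaf1a, the large subunit of the chaperone that deposits histones behind the fork, had 8.50, 8.47 and 7.47 CPM in colon GFP+ against 19.6 and 21.5 CPM in WT. In ileum it had 11.7, 8.94 and 6.28 CPM in GFP+ against 36.2 and 31.5 CPM in WT. It was 2.52-fold lower in colon (log2 −1.33, SE 0.21, edgeR adjusted p = 0.000217) and 3.78-fold lower in ileum (log2 −1.92, SE 0.21, edgeR adjusted p = 8.07e-06). Kif20a, a kinesin of cytokinesis, had 12.2, 13.2 and 12.1 CPM in colon GFP+ against 17.3 and 20.9 CPM in WT, while ileum GFP+ had 12.6, 14.7 and 12.8 CPM against 31.8 and 36.7 CPM in WT. Its GFP+ libraries lay within 12.1 to 14.7 CPM in both tissues while the WT crypts differed between them (1.53-fold lower in colon, edgeR adjusted p = 0.00782; 2.55-fold lower in ileum, edgeR adjusted p = 1.55e-05). Cdc20 had 12.6, 15.8 and 23.3 CPM in colon GFP+ against 27.0 and 27.3 CPM in WT, while ileum GFP+ had 21.5, 14.6 and 23.8 CPM against 54.1 and 52.4 CPM in WT. It was 1.58-fold lower in colon (edgeR adjusted p = 0.0311) and 2.68-fold lower in ileum (edgeR adjusted p = 0.000176). Thus the 2 APC/C members went in opposite directions, with the activator Cdc20 lower and the enzyme Ube2c higher. Cyclin E1 (Ccne1), the partner of CDK2 at the start of S phase, had 7.65, 5.73 and 2.84 CPM in colon GFP+ against 11.5 and 9.91 CPM in WT. It had 6.47, 6.24 and 3.71 CPM in ileum GFP+ against 13.4 and 13.8 CPM in WT (1.95- and 2.48-fold lower, edgeR adjusted p = 0.0277 and 0.00434). With only the compared groups in the fit, the colon calls of Ccne1, Mcm2 and Cdc20 were lost, while Mcm4 and Uhrf1 passed as lower. Mcm2 and Cdc20 also lost the colon call without colon GFP+ 1 or colon GFP+ 2. Ccne1 lost it without colon GFP+ 2 or colon GFP+ 3.

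The MCM helicase was lower in ileum GFP+ cells. All 6 subunits passed there, by 1.69-fold (Mcm4) to 2.39-fold (Mcm5), and only Mcm2 passed in colon; no subunit passed the test of a difference between tissues (edgeR adjusted p = 0.0966 to 0.732). Mcm5 had 43.8, 41.9 and 54.4 CPM in ileum GFP+ against 115 and 108 CPM in WT (edgeR adjusted p = 0.000133). In colon it had 51.1, 48.2 and 80.4 CPM in GFP+, which overlapped the 72.9 and 74.3 CPM of WT (1.23-fold lower, edgeR adjusted p = 0.226). Mcm2 had 43.1, 36.5 and 51.0 CPM in colon GFP+ against 57.0 and 62.3 CPM in WT, while ileum GFP+ had 51.8, 38.8 and 47.5 CPM against 83.8 and 88.9 CPM in WT. Its libraries did not overlap (1.37- and 1.88-fold lower, edgeR adjusted p = 0.0346 and 0.000406). The licensing factor Cdt1 and Uhrf1, which carries DNA methylation to new strands, passed as lower in ileum only (1.73- and 2.42-fold, edgeR adjusted p = 0.0165 and 0.000933), and the difference between tissues did not pass for either (edgeR adjusted p = 0.330 and 0.349).

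Other S phase members were higher in colon GFP+ cells. Gins2 had 19.5, 16.8 and 27.5 CPM against 9.69 and 9.77 CPM in colon WT (2.18-fold, edgeR adjusted p = 0.00301), and Gins1 was 1.84-fold higher (edgeR adjusted p = 0.0106). Dut, which removes dUTP from the nucleotide pool, had 35.8, 37.4 and 45.7 CPM against 23.4 and 22.5 CPM (1.73-fold, edgeR adjusted p = 0.00118). Pcna had 40.0, 40.5 and 49.0 CPM against 30.1 and 30.4 CPM (1.42-fold, edgeR adjusted p = 0.0484). For all 4, colon GFP+ and WT libraries did not overlap. None passed in ileum, and the difference between tissues did not pass for any (edgeR adjusted p = 0.128 to 0.370). The colon calls of Pcna and Gins1 were lost when genes with few counts were kept. Pcna also lost its call with a replicate block and with genes over 1% of counts left out of the scaling. The same held without each colon GFP+ library in turn. Of the mitotic CDK and cyclins, Cdk1, Ccna2, Ccnb1 and Ccnb2 all passed as higher in colon GFP+ cells (1.35- to 1.60-fold). None passed in ileum, and neither did their difference between tissues (edgeR adjusted p = 0.0767 to 0.699). When genes with few counts were kept, the colon calls of Cdk1, Ccnb1 and Ccnb2 were lost. Ccnb1 also lost its call with only the compared groups in the fit and without colon GFP+ 1, and Cdk1 without colon GFP+ 3. Ccna2 had 107, 97.0 and 108 CPM in colon GFP+ against 66.8 and 62.9 CPM in WT, while ileum GFP+ had 148, 137 and 132 CPM against 114 and 125 CPM in WT (1.60-fold, edgeR adjusted p = 0.00112; 1.16-fold, edgeR adjusted p = 0.175).

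Rrm1, which makes deoxynucleotides for replication, was higher in colon GFP+ cells and lower in ileum GFP+ cells. Its levels were 111, 100.5 and 90.7 CPM in colon GFP+ against 72.0 and 79.4 CPM in colon WT (1.33-fold higher, edgeR adjusted p = 0.0345). They were 90.4, 98.4 and 84.1 CPM in ileum GFP+ against 119 and 141 CPM in ileum WT (1.43-fold lower, edgeR adjusted p = 0.00812). Neither tissue had overlap, and the GFP+ libraries of colon and ileum overlapped each other while the crypts of the 2 tissues did not. The colon call of Rrm1 was lost with only the compared groups in the fit and when genes with few counts were kept. Its colon call was also lost without colon GFP+ 1 or colon GFP+ 2. The difference of the GFP+ to WT change, colon minus ileum, was 0.93 on the log2 scale (SE 0.21, edgeR adjusted p = 0.0320). Rrm1 was the only member that passed this test, in which 1.30% of all genes were higher and 0.890% lower. It no longer passed without colon GFP+ 2, colon WT 1, colon WT 2, ileum GFP+ 3 or ileum WT 2. With only the compared groups in the fit, or with a replicate block within genotype, Rrm1 did not pass either. Without ileum GFP+ 1, 8 members passed, adding Mcm3, Mcm6, Mcm7, Gins2, Aurkb, Bub1 and Bub1b. The difference was above 0 for 40 of 43 members, with a median of 0.63 against 0.04 for all genes. The WT crypts of colon and ileum that enter this difference themselves differed, as given above.

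Against KO crypts, 6 members were higher and 6 lower in colon GFP+ cells (23.9% and 25% of all genes), and 2 were higher and 21 lower in ileum GFP+ cells (27.5% and 27.9%). The comparisons with WT and KO crypts share the GFP+ libraries, so values are set side by side only. Tyms and Ube2c were higher in both tissues, by 2.29- and 2.06-fold in colon and 1.73- and 1.44-fold in ileum. Ccne1, Chaf1a, Uhrf1, Cdc20, Kif20a and Kif23 were lower in both. The shares of all genes higher or lower in both tissues were not computed. Kif20a was 2.09-fold lower in colon and 3.69-fold lower in ileum (edgeR adjusted p = 0.00011 and 5.64e-07), and Chaf1a 2.74- and 4.18-fold lower (edgeR adjusted p = 7.99e-05 and 2.8e-06). The 6 higher in colon were 3 without colon KO 1 and 2 without colon KO 2, and the 6 lower were 3 without colon KO 1. The 2 higher in ileum were 0 without ileum GFP+ 1 or ileum KO 1 and 1 without ileum KO 2. The mitotic median was 0.03 in colon and −0.34 in ileum, and the S phase median −0.22 and −0.88. The colon mitotic median was −0.04 when genes with few counts were kept, −0.06 without colon GFP+ 1 and −0.02 without colon KO 2.

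**Figure D5:**
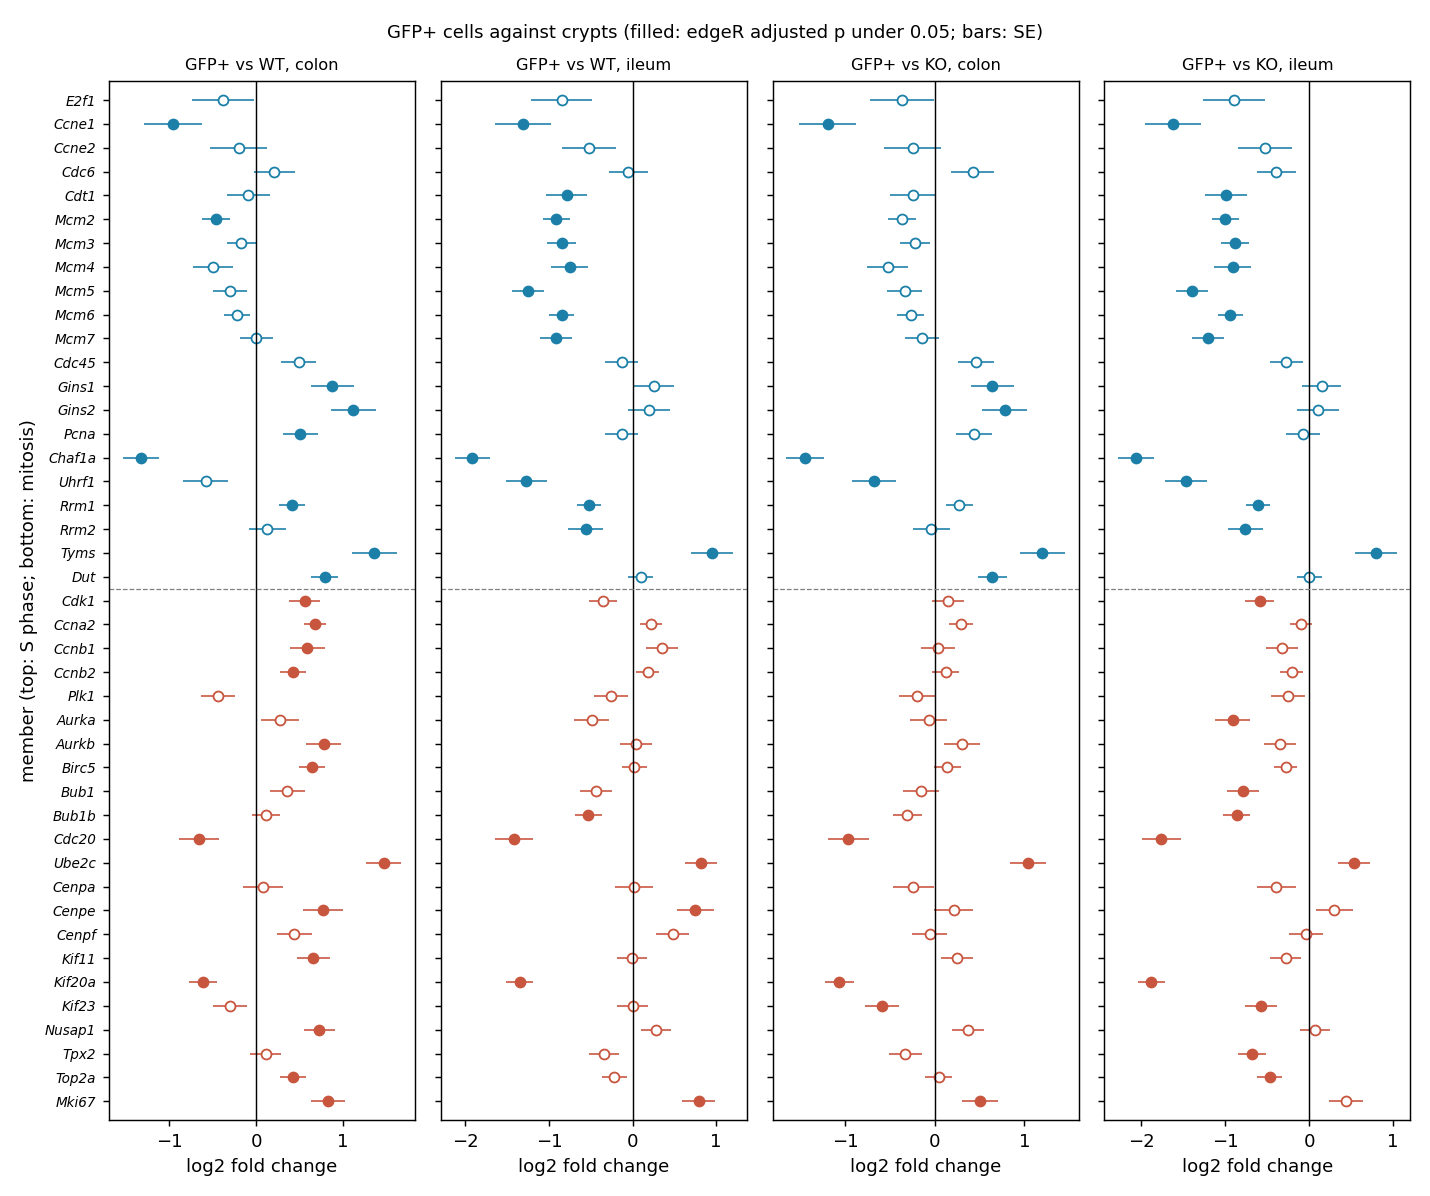
Log2 fold change of GFP+ cells against WT and KO crypts in each tissue for each member (points; bars are the SE), with separate x scales; filled points passed an edgeR adjusted p under 0.05. Chaf1a, Cdc20, Kif20a and Ccne1 are filled and under 0 in all 4 panels, and Tyms and Ube2c filled and above 0 in all 4.

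Ileum GFP+ 1 was the most S phase-rich of its group. Of 21 S phase members, 20 were higher in it than in ileum GFP+ 2, and 20 than in ileum GFP+ 3, with the S phase sum at 820.2 CPM against 569 and 641 CPM. Lgr5 had 121 CPM in it, against 30 and 34.0 CPM. Without it, 18 rather than 15 members were lower than in ileum WT, adding E2f1, Ccne2 and Bub1. The 10 goblet markers summed to 46899 CPM in ileum GFP+ 1, against 133775 and 117134 CPM in ileum GFP+ 2 and 3. All 10 were lower in ileum GFP+ 1 than in each of the other ileum GFP+ libraries. In colon GFP+ libraries the goblet markers summed to 64840.3 to 70381 CPM. The 10 Paneth markers summed to 62076 to 84546 CPM in ileum GFP+ and 164 to 2463 CPM in colon GFP+ libraries. Immune markers summed to 5 to 15.3 CPM over all 6 sorted libraries and B cell markers to 2.02 to 4.60 CPM. The part of stem or progenitor cells within the sort in these levels was not tested.

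Genes of G1 and of exit from the cycle were read in the same GFP+ to WT comparisons, in which 22.3% of all genes were higher and 23.6% lower in colon, and 24.6% and 28.1% in ileum. Of 9 G1 cyclins and kinases, 1 was higher and 2 lower in colon, and 1 higher and 4 lower in ileum. Cdk6, a D-cyclin kinase, had 44.4, 36.0 and 29.1 CPM in colon GFP+ against 6.75 and 9.98 CPM in WT, while ileum GFP+ had 67.6, 28.3 and 30 CPM against 7.92 and 12.1 CPM in WT. It was the highest rise of the list (log2 2.12 and 2.06, edgeR adjusted p = 0.000594 and 0.000545). Cdk2, the partner of cyclins E and A, had 11.7, 8.09 and 11.5 CPM in colon GFP+ against 27.9 and 28.2 CPM in WT, while ileum GFP+ had 17.5, 14.3 and 9.28 CPM against 35.0 and 36.1 CPM in WT (log2 −1.43 and −1.38, edgeR adjusted p = 0.000192 and 0.000177). The phosphatase Cdc25a, which activates CDK2, fell in both too (log2 −1.36 and −1.07, edgeR adjusted p = 2.83e-05 and 0.000135).

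Of 12 tested CDK inhibitors and exit genes, 3 were higher and 7 lower in colon GFP+ cells, and 3 higher and 5 lower in ileum; the 3 higher are near the share over all genes in both tissues. Ccng2, an atypical cyclin of resting cells, had 8.72, 12.7 and 10.8 CPM in colon GFP+ against 112 and 76.8 CPM in WT, while ileum GFP+ had 13.5, 10.9 and 5 CPM against 108 and 49.9 CPM in WT (log2 −3.14 and −3.02, edgeR adjusted p = 2.94e-05 and 3.13e-05). The APC/C activator Fzr1, which holds cells in G1, was lower (log2 −1.26 and −1.62, edgeR adjusted p = 2.15e-05 and 2.17e-06). Ccng1 (log2 1.05 and 0.83), Trp53inp1 (log2 0.72 and 1.18) and the antiproliferative gene Btg2 (log2 0.67 and 1.83) were higher in both tissues. Gadd45a was lower in both (log2 −1.10 and −1.0). The CDK inhibitor Cdkn1a was lower in colon (log2 −1.21, edgeR adjusted p = 0.00165) and did not pass in ileum (log2 −0.39, edgeR adjusted p = 0.207). Of 16 E2F, RB and DREAM factors, 2 were higher and 3 lower in colon and 3 higher and 3 lower in ileum, under the shares over all genes. E2f3 and E2f4 were lower in both, and the RB relative Rbl2 higher in both.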

How the data were processed

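RNA of 14 libraries was measured by sequencing. Per the submitters' processing notes, the authors aligned reads with TopHat 1.4.1 to mm9 and counted them with HTSeq. For HTSeq, no version, annotation or strand setting is stated in the sources used here. The authors deposited unnormalised counts, 1 table of Ensembl genes per library; its 5 summary lines were left out.

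Symbols, exon lengths and gene types came from GENCODE M21 by Ensembl ID (31004 of 36536 IDs matched, with 43 of 43 members and 227 of 228 entries of other lists). The members and lists were chosen with earlier results of these data known. Groups were taken from the labels. Genes were tested with edgeR 4.0.16 in R 4.3.3 (TMM, filterByExpr, robust quasi-likelihood F-test, Benjamini-Hochberg over all genes, threshold 0.05), on 8 crypt libraries for crypt comparisons (14415 genes) and on all 14 otherwise (15274 genes), so that the groups of a fit share 1 estimate of the spread. TMM factors were 0.64 to 0.79 in sorted and 1.25 to 1.35 in crypt libraries. No replicates held identical values (chi-square per gene of 10.3 to 84.8). Alternatives were other scalings, no low-count filter, DESeq2 1.42.0, replicate blocks, other libraries in the fit and leaving out each library. All members could be named. Values per library are given for the members called in the most comparisons within each role class (ties broken by mean CPM) and for those called against the majority of their phase; values of other members were added for contrast. From the other lists, up to 4 called genes with the largest change in each direction and any gene of the G1, E2F and CDK inhibitor lists could be named.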

Additional observations from a re-analysis of the deposited data

Results flagged for a closer look

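The GFP+ to WT change of Rrm1 differed between tissues by 0.93 on the log2 scale, colon minus ileum (SE 0.21, edgeR adjusted p = 0.0320), with colon GFP+ libraries above colon WT and ileum GFP+ libraries below ileum WT. Bub1, Bub1b and Top2a had their libraries placed in the same way, and their difference did not pass (edgeR adjusted p = 0.158, 0.160 and 0.149). These are 4 of 43 members, against 1.15% of all genes. Against KO crypts, 3 members had every colon GFP+ library above both colon KO libraries and every ileum GFP+ library below both ileum KO libraries, against 1.33% of all genes. These were Rrm1, whose change differed by 0.88, Cdc6 by 0.81 and Birc5 by 0.42 (log2, colon minus ileum). The difference between tissues was not tested for these 3.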

How the results depend on the processing

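Counts of members called are compared here, without the shares of all genes called under each alternative. Printed phase medians that turned sign, all within 0.10 of 0, are given beside their results. With genes of few counts kept, the members higher in KO were 1 in ileum (0 with the filter) and 13 averaged over tissues (8), those lower in colon GFP+ than ileum GFP+ 5 (10), those higher in GFP+ than WT in colon 11 (18), those higher in GFP+ than KO in ileum 1 (2), and those with a higher GFP+ to WT difference in colon 3 (1). By DESeq2, 2, 14 and 5 were called for ileum KO, averaged KO and the tissue difference. With all 14 libraries in the fit, 1 rose in the averaged KO test. With only the compared groups, 20 of 34 were lower in colon WT, 3 of 10 in colon GFP+, 1 was higher in GFP+ than KO in ileum and 0 had a higher tissue difference. Without both ileum GFP+ 1 and ileum WT 1, an alternative chosen after seeing the data, 1 member was higher in ileum GFP+ than WT. The causes were not tested.

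Leaving out each library in turn gave 0 to 15 members higher in averaged KO, 0 to 2 in ileum KO, 19 to 34 lower in colon WT, and 0 to 3 higher and 4 to 11 lower in colon GFP+. GFP+ against WT gave 7 to 17 higher and 1 to 5 lower in colon, and 1 to 5 higher in ileum. GFP+ against KO gave 2 to 5 higher and 3 to 7 lower in colon, and 0 to 2 higher in ileum. The tissue difference gave 0 to 8.

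Same-numbered libraries correlated by 0.29 (KO) and 0.26 (WT) between colon and ileum, and by −0.01 and 0.08 between KO and WT in colon and ileum. With 2 numbers per group and no label tying numbers to animals, the libraries share only a number. A replicate block gave 1 member higher in ileum KO and 2 with a higher tissue difference, and in averaged KO 8, with Kif20a in place of Ccna2. A block within genotype gave 0 members with a higher tissue difference. Depth limits members with few reads most, such as Ccne1.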

Other observations

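Some genes outside the member list had larger GFP+ to WT changes than any member. Kifc1, a kinesin that bundles spindle microtubules, was lower in both tissues (log2 −2.51 in colon and −3.40 in ileum), as was the nuclear lamina gene Lmnb1 (log2 −2.46 and −2.57). Fen1, the flap endonuclease of lagging strand synthesis, had at most 0.245 CPM in GFP+ libraries and 1.37 to 3.83 CPM in crypt libraries. Strand setting and annotation of the counting are not known here, so reads of overlapping or antisense genes may be missing from these counts.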
